A study of Mus musculus with 8 samples.

Results

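The genes of the respiratory chain were compared between lungs of Control and TTI-101-treated tumor-bearing mice. A protein-coding gene was taken as a respiratory chain gene by its symbol alone: the prefix mt-, the complex I names Ndufa, Ndufb, Ndufc, Ndufs and Ndufv, the complex II genes Sdha to Sdhd, the complex III prefix Uqcr, the complex IV names Cox4 to Cox8, and the ATP synthase prefix Atp5. This gave 107 of the 54532 genes in the count table, of which 13 are encoded on the mitochondrial genome and 94 in the nucleus. Of the nuclear genes, 38 name complex I, 4 complex II, 8 complex III, 18 complex IV and 17 ATP synthase, and 9 are assembly or coupling factors (Ndufaf1 to Ndufaf8 and Atp5s). The rule used no measured value.

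The mice were CC-LR mice, and poly(A) RNA of the whole lung was sequenced, with 1 library per mouse. CC-LR mice carry a Cre-activated K-ras G12D allele together with Cre expressed from the locus of the club cell secretory protein, so the oncogene is switched on in airway club cells, on a C57BL/6 background. All 8 mice carried both alleles and were 14 weeks old: 4 were Control, and 4 received TTI-101, a small-molecule inhibitor of STAT3, for 4 weeks from 10 weeks of age. The route of TTI-101, what the Control mice received and the sex of each sequenced mouse were not given in the sources used here.

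The respiratory chain sits in the inner mitochondrial membrane. Complexes I and II pass electrons from NADH and succinate to ubiquinone, complex III passes them on to cytochrome c, and complex IV passes them to oxygen, while complexes I, III and IV pump protons that ATP synthase uses to make ATP. The mitochondrial genome encodes a few hydrophobic core subunits of complexes I, III, IV and ATP synthase, and all of complex II and the remaining subunits come from the nucleus, so the complexes are built from transcripts of both genomes. In the lung, alveolar type 2 and club cells are known to be rich in mitochondria.

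Total counts were 16446481 to 26873509 in Control and 16075855 to 25920509 in TTI-101 libraries, with the deepest library being mouse 1 of each group. Levels are given as CPM, the counts of a gene relative to the total of its library after TMM scaling, and differences as log2 fold changes of TTI-101 against Control with their standard error (SE) from edgeR's quasi-likelihood test. Stat3 itself lay between 219.5 and 293.0 CPM in Control and between 212 and 270 CPM in TTI-101 lungs, which checks no label, because the compound acts on the protein. All 7 alveolar type 2 markers and all 5 club cell markers were detected. Control mouse 4 stood apart: it had the lowest summed level of the endothelial, leukocyte, cardiomyocyte and pericyte marker lists and the highest of the alveolar type 2, club and ciliated lists. Values of the respiratory chain and marker lists are therefore also given with that lung left out. In whole lung, fewer cells of a type and less RNA per cell cannot be told apart.

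No respiratory chain gene passed an adjusted p of 0.05 in edgeR, nor did any of the 17138 genes tested (0.0%). DESeq2 called 4 genes (0.0126% of those it tested) and none of them was a respiratory chain gene, the lowest adjusted p among those being 0.669 in DESeq2. Of the 107 genes, 103 passed the filter on low counts, and 7 of these had an unadjusted p under 0.05 in edgeR, all 7 lower in TTI-101 lungs. Over all genes tested, 1132 (6.61%) had an unadjusted p under 0.05, and 614 (3.58%) did so on the lower side. The 7 genes were mt-Co2, Ndufv2, Ndufc2, Uqcrb, Cox6c, Ndufaf6 and Atp5mpl, of which mt-Co2, Ndufc2 and Uqcrb stayed under 0.05 when Control mouse 4 was left out. In none of the 103 did all 4 treated lungs lie below all 4 Control lungs, against 1.43% of all genes tested.

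**Figure D1:**
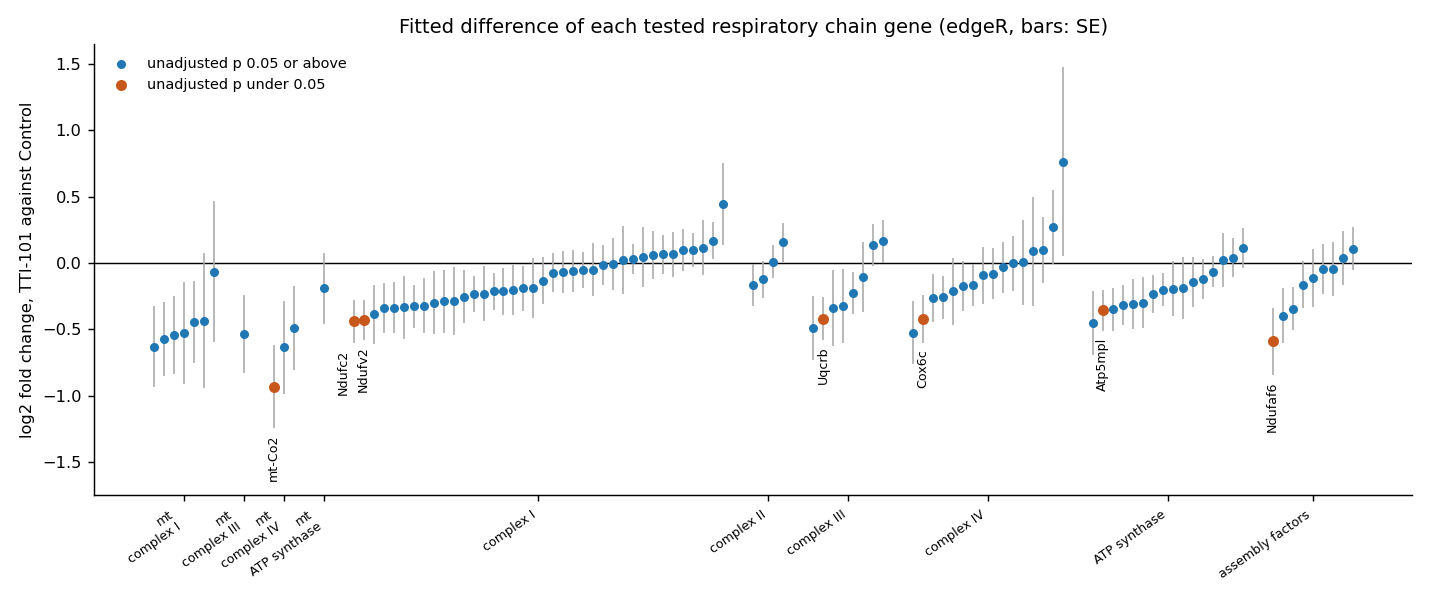
Log2 fold change of TTI-101 against Control (vertical axis) of the 103 tested respiratory chain genes, ordered within each complex, with mitochondrially encoded genes (mt) at the left; points are edgeR estimates, bars are SE, and orange points have an unadjusted p under 0.05. All 12 mitochondrially encoded points and 66 of 91 nuclear points lie below 0, and the lowest is mt-Co2 at -0.93.

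The mitochondrially encoded genes fell into an abundant and a scarce set. The abundant set had 7 genes with 1470 to 7040 CPM per kb of gene length over the 8 lungs, which held 99.3% to 99.6% of all mitochondrially encoded counts in every library. It comprised mt-Co1, the catalytic subunit of complex IV, mt-Cytb, the cytochrome b of complex III, and the complex I membrane subunits mt-Nd1, mt-Nd2, mt-Nd4, mt-Nd5 and mt-Nd6. The scarce set had 6 genes with 2.53 to 116 CPM per kb, namely mt-Co2, which takes electrons from cytochrome c, mt-Co3, the ATP synthase subunits mt-Atp6 and mt-Atp8, and the complex I subunits mt-Nd3 and mt-Nd4l.

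This division went with a property of the sequence that the rule did not use. Each mitochondrial gene was cut into overlapping 100-base windows, and each window was looked for in all other annotated transcripts of GRCm38. For 5 of the 6 scarce genes, 97.6% to 99.9% of windows occurred unchanged elsewhere, and their closest copies form a run of pseudogenes on the minus strand of chromosome 1. For the abundant genes the share was 0.0% to 60.8%. mt-Atp8 was the exception, scarce with 0.0% of windows elsewhere. It is 204 bases long and shares its last 43 bases with mt-Atp6. How the counting treated reads that align in several places is not given in the sources used here, and its part in the low levels was not tested.

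The stretches below show how close gene and copy are. Each is the first 90 bases of the gene on GRCm38, 5′ to 3′ along the transcript, and capitals mark a base that differs from the counterpart. mt-Co2 at MT:7013-7102 (plus strand) is identical over all 681 aligned bases to Gm28661, whose matching stretch is chr1:24615476-24615565 (minus strand). mt-Nd3 at MT:9459-9548 (plus strand) has 1 difference in 345 aligned bases from Gm28438 at chr1:24613030-24613119 (minus strand), T3C with positions counted from 1 at the gene's 5′ end and the mitochondrial base first.
mt-Co2: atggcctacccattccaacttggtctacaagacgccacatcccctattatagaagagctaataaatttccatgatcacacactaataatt
mt-Nd3: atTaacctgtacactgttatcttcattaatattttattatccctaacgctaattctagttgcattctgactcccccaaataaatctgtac
Gm28438: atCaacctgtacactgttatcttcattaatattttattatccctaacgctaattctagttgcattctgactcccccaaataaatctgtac

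Counts were divided between gene and copy in different ways. Of the counts of mt-Co2 and Gm28661 together, the copy held 41.6%, 42.5%, 46.4% and 46.5% in Control and 49.6%, 52.6%, 51.8% and 45.9% in TTI-101 lungs. Counts of this identical sequence were split close to evenly in all libraries. For mt-Nd3 the copy Gm28438 held 11.6%, 90.9%, 89.4% and 91.8% in Control and 11.7%, 77.3%, 84.0% and 88.7% in TTI-101 lungs. The low shares were those of mouse 1 in either group, also the deepest libraries, while the other 6 libraries lay at 77.3% or above. The files hold counts and not reads, so which base the reads carried at this position was not tested. For mt-Nd4 and mt-Co1, both abundant, the closest copies held at most 0.89% and 0.05%. The copy of mt-Co1 is 97.6% identical to the gene. That of mt-Nd4, Gm28439, is identical over all 876 aligned bases (63.6% of the gene), so an identical stretch did not always go with an even split.

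**Figure D2:**
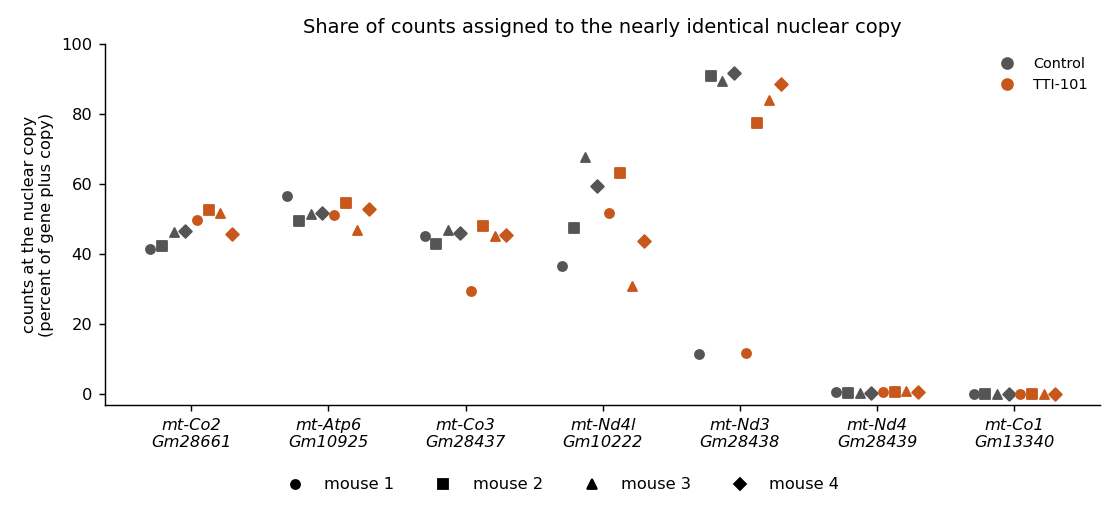
Share of counts assigned to the nuclear copy (percent of gene plus copy, vertical axis) for 7 mitochondrially encoded genes, each named above its copy; points are libraries, grey Control and orange TTI-101, with the mouse number as the symbol. mt-Co2, mt-Atp6 and mt-Co3 lie between 29.6% and 56.5%, and mt-Nd3 divides into 11.6% and 11.7% in the mouse 1 libraries and 77.3% to 91.8% in the rest.

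Summed over the mitochondrially encoded genes, Control lungs had 23488, 27154, 25307 and 58332 CPM and TTI-101 lungs had 26897, 23804, 19555 and 23345 CPM. The high value was that of Control mouse 4, and the other 7 lungs of both groups overlapped. Means were 33570 ± 16576 CPM in Control and 23400 ± 3010 CPM in TTI-101 lungs (SD, n = 4), and the Control mean was 25316 ± 1833 CPM (SD, n = 3) without mouse 4. The share of the whole library was 5.38% in Control mouse 4 and 1.96% to 2.76% in the other libraries.

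The per-gene fits followed the same mouse. All 12 tested mitochondrially encoded genes were lower in TTI-101 lungs, with a median log2 fold change of -0.53, where 49.4% of all genes tested were lower and the median over all was 0.00. Without Control mouse 4, 10 of 12 were lower and the median was -0.12. An unadjusted p under 0.05 in edgeR was reached by mt-Co2 alone with all mice, by 6 genes when Control mouse 1 was left out, 2 for Control mouse 2, 3 for TTI-101 mouse 1 and 1 for each of the other mice. Over all genes tested, 13.7%, 6.51% and 4.08% were under 0.05 in the first 3 of these fits. Control mouse 4 was the highest of the 8 for 11 of the 12 genes. Since these genes are cut from long shared precursor transcripts, they are not independent of each other.

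Among the abundant genes, mt-Co1 had 8792, 10167, 9570 and 22245 CPM in Control and 10058, 9968, 7693 and 8520 CPM in TTI-101 lungs. Its log2 fold change was -0.49 ± 0.32 (SE), with an unadjusted p of 0.154 in edgeR. mt-Cytb had 4246, 5090.5, 4862 and 10151 CPM in Control and 4879, 4482, 3447 and 3987 CPM in TTI-101 lungs, with a log2 fold change of -0.54 ± 0.29 (SE). In both genes TTI-101 mice 1 and 2 lay among the Control lungs, and mice 3 and 4 lay below them. Leaving out Control mouse 4 brought the log2 fold changes to -0.06 for mt-Co1 and -0.16 for mt-Cytb.
The 5 abundant complex I genes gave log2 fold changes from -0.63 (mt-Nd1) to -0.44 (mt-Nd2), with unadjusted p from 0.0652 (mt-Nd6) to 0.202 (mt-Nd5) in edgeR. With Control mouse 4 left out, the log2 fold changes of these 5 ran from -0.22 (mt-Nd6) to 0.03 (mt-Nd5). The unadjusted p in edgeR then ran from 0.266 (mt-Nd6) to 0.914 (mt-Nd2). mt-Nd6 is the only one of the 13 on the other strand and shares 14 bases with mt-Nd5. The library kit keeps strand, and whether the counting used it is not given in the sources used here.

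mt-Co2 (MT:7013-7696, plus strand) had the lowest unadjusted p of all respiratory chain genes. It had 56.8, 101, 99.6 and 158 CPM in Control and 31.8, 68.0, 51.5 and 66.6 CPM in TTI-101 lungs. The groups overlapped through Control mouse 1, and 2 of 4 treated lungs lay below all Control lungs. The log2 fold change was -0.93 ± 0.31 (SE), with an unadjusted p of 0.0132 and an adjusted p of 0.657 in edgeR, and the two-sided exact permutation test over the 70 assignments of mice gave p = 0.0857. With the counts of Gm28661 added it was -0.79 with an unadjusted p of 0.0362 in edgeR. Raw counts of gene plus copy were 2652, 2940, 3348 and 4619 in Control and 1678, 2390, 1920 and 2022 in TTI-101 lungs. They are not scaled for depth, and Control mouse 1 was the deepest library. Its 2652 counts came from 26873509 total counts, and the 2390 of TTI-101 mouse 2 from 16642630. Relative to depth, Control mouse 1 thus lay below TTI-101 mouse 2, and the groups overlapped for gene plus copy too.

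The remaining scarce genes rested on few counts that the copies shared. mt-Co3 had 18.3 to 79.8 CPM in Control and 24.0 to 35.9 CPM in TTI-101 lungs, and mt-Atp6 had 27.3 to 69.3 and 29.5 to 41.9 CPM. mt-Nd4l had 3.67 to 13.4 and 2.16 to 8.12 CPM. None of these 3 had an unadjusted p under 0.05 in edgeR, the lowest being 0.0988 for mt-Co3. mt-Nd3 had 259, 66, 72 and 85 counts in Control and 339, 51, 43 and 58 counts in TTI-101 lungs, highest in the mouse 1 libraries of both groups, and a log2 fold change of -0.07 ± 0.53 (SE). With Gm28438 added the counts were 293, 721, 676 and 1038 in Control and 384, 225, 268 and 511 in TTI-101 lungs, and the log2 fold change became -1.09 with an unadjusted p of 0.0407 in edgeR. mt-Atp8 had 2 to 17 counts per library and was not tested.

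**Figure D3:**
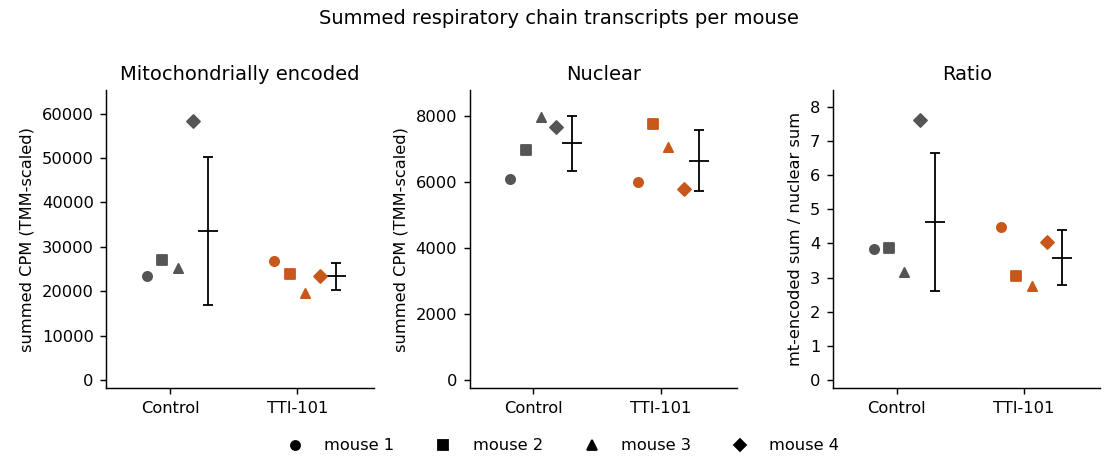
Summed TMM-scaled CPM of the mitochondrially encoded genes (left) and the nuclear genes (middle) and their ratio (right) in each lung; symbols give the mouse, and the bar beside each group is the mean with its SD (n = 4). Control mouse 4 lies at 58332 CPM in the left panel and at a ratio of 7.60 in the right one, while the nuclear sums of both groups span 5789 to 7984 CPM.

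The nuclear genes differed less. Their summed level was 6098, 6994, 7984 and 7678 CPM in Control and 5997, 7768, 7074 and 5789 CPM in TTI-101 lungs, with means of 7189 ± 837 and 6657 ± 930.4 CPM (SD, n = 4). Treated mice 1 and 4 lay below all Control lungs and Control mouse 3 above all treated lungs, while the others overlapped. The ratio of mitochondrially encoded to nuclear CPM was 3.85, 3.88, 3.17 and 7.60 in Control and 4.49, 3.06, 2.76 and 4.03 in TTI-101 lungs. Means of the ratio were 4.62 ± 2.01 and 3.59 ± 0.807 (SD, n = 4), and the Control mean was 3.63 ± 0.403 (SD, n = 3) without mouse 4. Control mouse 4 was thus high in mitochondrially encoded transcripts and within the range of the other Control lungs in nuclear ones.

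Of the 91 nuclear genes tested, 66 (72.5%) were lower and 25 higher in TTI-101 lungs, against 49.4% lower among all genes tested. The median log2 fold change was -0.17. Mice of a group differed by 0.20 (SD) in their mean log2 CPM of these genes, which is a spread of single mice and not the error of the difference between groups. The median was -0.08 without Control mouse 3, -0.08 without Control mouse 4 and -0.05 without TTI-101 mouse 4. An unadjusted p under 0.05 in edgeR was reached by 6 nuclear genes, all lower. These are 6.59% of the 91, beside 6.61% of all genes tested. The count was 22 (24.2%, beside 13.7% of all genes) with Control mouse 1 left out and 14 (15.4%, beside 14.2% of all genes) with TTI-101 mouse 2 left out. It was 1 to 3 with any other mouse left out, Control mouse 4 giving 2 (2.2%, beside 3.03% of all genes). TTI-101 mouse 4 was the lowest of the 8 lungs for 36 of the 91 genes and Control mouse 1 for 22, whereas Control mouse 3 was the highest for 30 and Control mouse 4 for 24. Both groups thus held lungs low and lungs high across the nuclear chain.

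Gene length moved with the order of the lungs. Among the 42 nuclear genes under 1500 bases the median deviation from the mean of all lungs was -0.32 (log2) in Control mouse 1, -0.27 in TTI-101 mouse 1, -0.33 in TTI-101 mouse 4 and 0.37 in Control mouse 3. Among the 20 over 3000 bases it was -0.14, -0.16, -0.22 and 0.17 in the same lungs. Short genes as a whole leaned the same way: over all genes tested under 1500 bases, 56.6% were lower in TTI-101 lungs with a median of -0.06, against 48.3% for genes over 3000 bases with a median of 0.01. The difference between groups did not follow length among the nuclear genes themselves, with medians of -0.20 under 1500 bases (76.2% lower), -0.07 from 1500 to 3000 bases (65.5% lower) and -0.18 over 3000 bases (75.0% lower). The part of gene length in the nuclear result was not tested.

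Complex I oxidizes NADH. Its 38 nuclear genes summed to 1632, 2002, 2345 and 2119 CPM in Control and 1653, 2217, 1996 and 1593 CPM in TTI-101 lungs, low in both mouse 1 lungs and in treated mouse 4. Of the 38, 27 were lower and 11 higher, with a median log2 fold change of -0.16 and 2 at an unadjusted p under 0.05 in edgeR. The median was -0.06 with Control mouse 3 or TTI-101 mouse 4 left out and -0.10 with Control mouse 4 left out. Divided by role after the values were seen, 25 of the 31 genes outside the core were lower (median -0.21), while 2 of the 7 nuclear core subunits, which hold the flavin and iron-sulfur clusters, were lower (median 0.03). The 31 were counted by symbol and hold Ndufa4, now known as a subunit of complex IV, and its paralogue Ndufa4l2 beside the accessory subunits. The difference between the core and the other genes was not tested.

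Ndufv2 (chr17:66078638-66101559, minus strand), a core iron-sulfur subunit of the NADH-oxidizing module, had the lowest unadjusted p of the nuclear genes. It had 59.2, 77.2, 82.5 and 92.3 CPM in Control and 55.7, 61.6, 58.3 and 55.8 CPM in TTI-101 lungs. Control mouse 1 lay among the treated lungs, and 3 of 4 treated lungs lay below all Control lungs. The log2 fold change was -0.43 ± 0.15 (SE) with an unadjusted p of 0.0164 and an adjusted p of 0.657 in edgeR. The exact permutation test gave p = 0.0571, where 0.0286 is the smallest possible. Of other core subunits, Ndufv1 had a log2 fold change of 0.17, Ndufs7 one of 0.02 and Ndufs3 one of -0.07.

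Ndufc2 (chr7:97400003-97407802, plus strand), an accessory subunit of the membrane arm, had 44.6, 50.6, 66.1 and 57.8 CPM in Control and 37.7, 48.2, 39.1 and 36.5 CPM in TTI-101 lungs. The lowest Control lung overlapped the highest treated lung. Its log2 fold change was -0.44 ± 0.16 (SE), with an unadjusted p of 0.0200 in edgeR. Ndufb5, also of the membrane arm, followed with -0.33 ± 0.16 (SE), and Ndufa2, the accessory subunit with the highest level per length at 105 CPM per kb, had -0.29 ± 0.25 (SE). At the other end of the scale Ndufb2 had 1.62 CPM per kb. The gene length used was 5628 bases for Ndufb2 and 572 bases for Ndufa2. Their Control means were 9.1 and 66.3 CPM, so part of this range lies in the lengths. Ndufa13, a complex I subunit known also as a binding partner of STAT3, had 41.8, 61.0, 77.3 and 62.3 CPM in Control and 40.5, 68.9, 60.6 and 42.9 CPM in TTI-101 lungs. Treated mouse 1 lay below all Control lungs and Control mouse 3 above all treated lungs, and the others overlapped, with a log2 fold change of -0.19 ± 0.22 (SE).

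Complex II, the succinate dehydrogenase shared with the citric acid cycle, has no mitochondrially encoded subunit and varied least between mice of a group (SD 0.149 on the log2 scale, against 0.196 to 0.314 for the other complexes). Its sum was 475, 422, 458 and 471 CPM in Control and 462, 468, 483 and 383 CPM in TTI-101 lungs, low in treated mouse 4 alone. Of its genes Sdhb, the iron-sulfur subunit, was 0.16 ± 0.15 (SE) higher on the log2 scale, Sdha, the flavin-bearing subunit, 0.01 ± 0.13 (SE) higher, and the membrane anchors Sdhc and Sdhd were at -0.12 and -0.17. The lowest unadjusted p of the 4 was 0.306 in edgeR.

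Complex III takes electrons from ubiquinol. The 8 genes summed to 544, 688, 788 and 749 CPM in Control and 542, 749, 649 and 530.3 CPM in TTI-101 lungs, and 6 of 8 were lower with a median log2 fold change of -0.28. It was -0.16 with Control mouse 3 left out and -0.18 with Control mouse 4 left out. Uqcrb (chr13:66900617-66905378, minus strand), a ubiquinone-binding subunit, had 53.1, 53.7, 57.7 and 50.6 CPM in Control and 51.7, 39.4, 32.2 and 37.7 CPM in TTI-101 lungs. Control lungs were close together, and treated mouse 1 alone lay among them. Its log2 fold change was -0.42 ± 0.16 (SE) with an unadjusted p of 0.0239 in edgeR and p = 0.0571 in the exact permutation test.

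Uqcrh, the hinge protein between cytochromes, had 81.9, 121, 147 and 145 CPM in Control and 76.1, 129, 76.7 and 70.4 CPM in TTI-101 lungs. Treated mouse 2 lay among the Control lungs and the other treated lungs lay below them, with a log2 fold change of -0.49 ± 0.24 (SE) and an unadjusted p of 0.0677 in edgeR. Uqcrfs1, the Rieske iron-sulfur protein, had -0.23 ± 0.16 (SE). Uqcr10, a small accessory subunit with the highest level per length of the complex (106 CPM per kb), had -0.32 ± 0.28 (SE). The core proteins Uqcrc1 and Uqcrc2 were the 2 of 8 on the other side, at 0.14 ± 0.16 and 0.16 ± 0.16 (SE).

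Complex IV reduces oxygen and carries the most nuclear isoforms. Its sum was 1073, 1428, 1727 and 1512 CPM in Control and 1068, 1634, 1319 and 1107 CPM in TTI-101 lungs, with 11 of 16 tested genes lower and a median log2 fold change of -0.09. This median turned on single lungs: it was 0.00 with Control mouse 3 left out, 0.01 with TTI-101 mouse 4, -0.01 with TTI-101 mouse 1, -0.19 with Control mouse 1 and -0.24 with TTI-101 mouse 2. Cox6c (chr15:35925886-35938246, minus strand), a small accessory subunit, had 101, 134, 152 and 160 CPM in Control and 91.7, 128, 93.2 and 94.8 CPM in TTI-101 lungs. Treated mouse 2 lay among the Control lungs, and the log2 fold change was -0.42 ± 0.18 (SE) with an unadjusted p of 0.0384 in edgeR. Cox7c, another small subunit, had the lowest fitted value of the complex at -0.52 ± 0.24 (SE), with 49.1 to 106 CPM in Control and 49.7 to 69.5 CPM in TTI-101 lungs and an unadjusted p of 0.0527. Cox8a, highest per length of all nuclear genes at 268 CPM per kb, had -0.09 ± 0.21 (SE).

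ATP synthase turns the proton gradient into ATP. The sum was 2248, 2322, 2531 and 2672 CPM in Control and 2146, 2570, 2503 and 2064 CPM in TTI-101 lungs. Atp5a1 and Atp5b had the highest levels per length at 168 and 129.8 CPM per kb. Of 16 genes tested, 13 were lower with a median log2 fold change of -0.20, which was -0.31 with Control mouse 1 and -0.30 with TTI-101 mouse 2 left out. The higher ones were Atp5b at 0.11 ± 0.15, Atp5a1 at 0.04 ± 0.15 and Atp5d at 0.02 ± 0.20 (SE). Atp5mpl (chr12:111961375-111966977, minus strand), a small proteolipid of the membrane sector, had 33.6, 38.4, 46.0 and 46.7 CPM in Control and 30.0, 37.8, 29.9 and 30.9 CPM in TTI-101 lungs. Treated mouse 2 again lay among the Control lungs, and the log2 fold change was -0.36 ± 0.16 (SE) with an unadjusted p of 0.0445 in edgeR.
Atp5l, subunit g of the membrane sector, had -0.35 ± 0.16 (SE) and Atp5f1, subunit b of the peripheral stalk, had -0.31 ± 0.15 (SE), with unadjusted p of 0.0571 and 0.0609 in edgeR. A second row for Atp5o was at 0 in all 8 libraries. The inhibitor of ATP synthase, listed as Atpif1 and outside the rule, had 31.8, 51.2, 69.4 and 87.1 CPM in Control and 29.1, 54.0, 38.3 and 36.0 CPM in TTI-101 lungs, a log2 fold change of -0.60 ± 0.29 (SE) with an unadjusted p of 0.0659.

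The assembly factors were present at 2.55 to 17.7 CPM per kb. Of 9, 7 were lower with a median log2 fold change of -0.11. With Control mouse 4 left out 5 of 9 were lower and the median was -0.07, and it was -0.07, -0.20 and -0.04 with Control mouse 1, Control mouse 3 and TTI-101 mouse 4 left out. Ndufaf6 (chr4:11051045-11076205, minus strand), needed to build complex I, had 6.09, 4.00, 8.10 and 5.88 CPM in Control and 4.07, 3.84, 4.11 and 3.95 CPM in TTI-101 lungs. The treated lungs were close together and Control mouse 2 lay among them, with a log2 fold change of -0.59 ± 0.25 (SE) and an unadjusted p of 0.0403 in edgeR. Ndufaf7, a methyltransferase needed for complex I assembly, had -0.34 ± 0.16 (SE), and Ndufaf8, the partner of Ndufaf5, had -0.40 ± 0.21 (SE). Neither had an unadjusted p under 0.05.

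**Figure D4:**
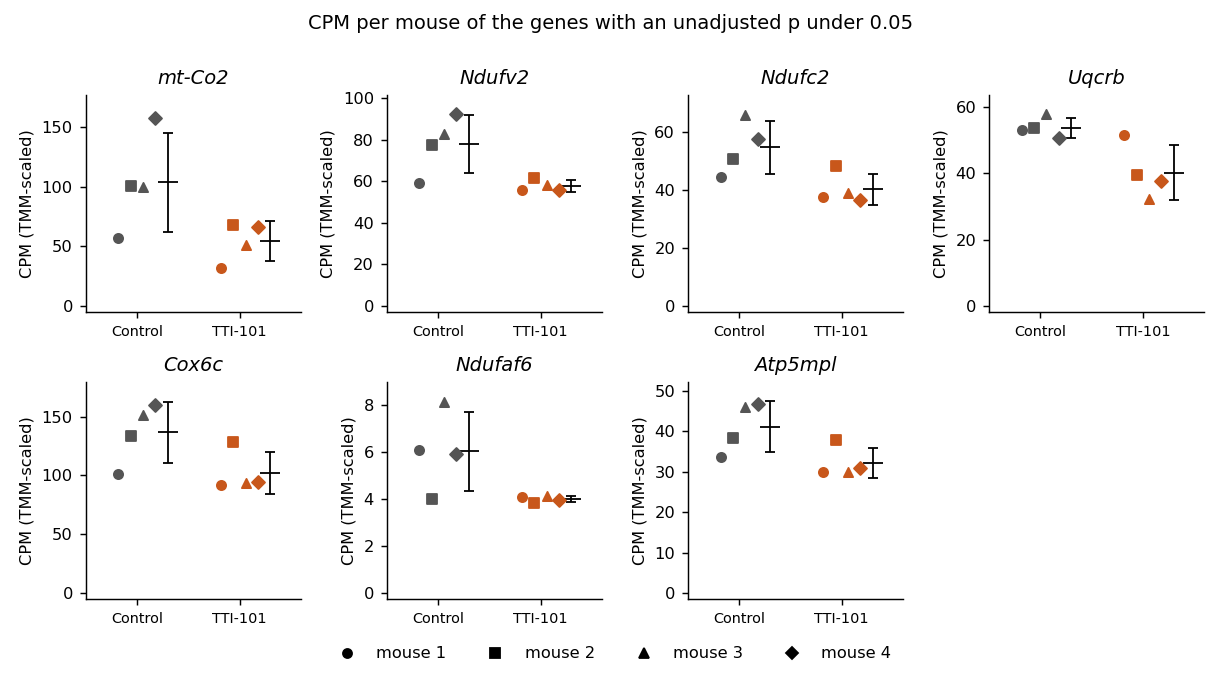
TMM-scaled CPM per lung (vertical axes from 0) of the 7 respiratory chain genes with an unadjusted p under 0.05 in edgeR; symbols give the mouse, and the bar beside each group is the mean with its SD (n = 4). In every panel at least 1 Control lung lies within or below the range of the treated lungs.

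Several subunits exist as a widely used form and a form restricted to some tissues, and the restricted forms were set beside marker genes of the cells known to use them. Cox4i2, the form of Cox4 known from lung and from pericytes, had 35.2, 51.4, 61.1 and 22.8 CPM in Control and 42.6, 47.1, 67.8 and 48.6 CPM in TTI-101 lungs. Per length it made up 13.5% to 36.2% of Cox4 transcripts, beside Cox4i1 at 172 to 347 CPM. Ndufa4l2, a low-oxygen form of Ndufa4 also known from pericytes, had 22.7, 30.1, 30.8 and 11.9 CPM in Control and 26.2, 29.2, 48.9 and 25.9 CPM in TTI-101 lungs. Both genes were lowest in Control mouse 4 and highest in treated mouse 3, with log2 fold changes of 0.27 ± 0.28 and 0.45 ± 0.31 (SE), or 0.08 and 0.23 when Control mouse 4 was left out. The 8 pericyte markers, all tested and none at 0, had a median log2 fold change of 0.38 (0.26 when that lung was left out) and summed to 586, 490, 414 and 288 CPM in Control and 606, 488, 697 and 682 CPM in TTI-101 lungs, also lowest in Control mouse 4 and highest in treated mouse 3. Of the 8 markers, 2 were lower in TTI-101 lungs. Among Control lungs the pericyte sum was highest in mouse 1, where both genes lay below Control mice 2 and 3. The alveolar type 1, leukocyte, B cell and adipocyte marker sums were also lowest in Control mouse 4 and highest in treated mouse 3. The part of any cell type in the levels of both genes was not tested.

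Cox6a2, Cox7a1 and Cox8b are the forms of heart and skeletal muscle. Cox6a2 had 32.5, 36.6, 36.4 and 32.2 CPM in Control and 25.7, 66.2, 22.6 and 23.8 CPM in TTI-101 lungs. Treated mouse 2 was far above the rest and the other treated lungs lay below all Control lungs. The log2 fold change was 0.00 ± 0.32 (SE) with all mice and -0.51 without treated mouse 2, with an unadjusted p of 0.00561 in edgeR. That fit leaves out the lung most extreme for this gene, and 14.2% of all genes had an unadjusted p under 0.05 in it. Cox7a1 had 2.02 to 7.35 CPM in Control and 3.59 to 7.39 CPM in TTI-101 lungs, and Cox8b had 0.128 to 5.38 and 3.20 to 6.72 CPM. All 3 were highest in treated mouse 2.
The 12 cardiomyocyte markers, all tested and all higher (median log2 fold change 0.80), summed to 488, 1035, 881 and 108 CPM in Control and 847, 1870, 733 and 739 CPM in TTI-101 lungs, highest in treated mouse 2 and lowest in Control mouse 4, where Nppa and Sln were at 0. The median was 0.43 and 11 of the 12 were higher with Control mouse 4 left out. Of the 9 skeletal muscle markers, 4 were tested (median -0.14, and -0.39 with Control mouse 4 left out), and the list summed to 4.99 to 60.9 CPM in Control, highest in mouse 1, and 15.2 to 36.0 CPM in TTI-101 lungs. Cox8b had 2 counts in Control mouse 4 against 31 to 112 in the other lungs. The part of heart muscle in the levels of the 3 genes was not tested.

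Cox6b2, Cox7b2 and Cox8c are known as testis forms. Cox7b2 and Cox8c had no count in any library, which allows up to 3 counts or 0.110 to 0.192 CPM per library, counting error only. Cox6b2 was detected, at 10.3 to 17.0 CPM in Control and 10.7 to 18.8 CPM in TTI-101 lungs, and per length made up 6.48% to 12.1% of Cox6b transcripts. The widely used forms Cox6a1, Cox6b1, Cox7a2, Cox7b, Cox8a and Ndufa4 had log2 fold changes from -0.34 (Ndufa4) to -0.00 (Cox6a1, whose sign changed with the scaling), and the groups overlapped in each.

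**Figure D5:**
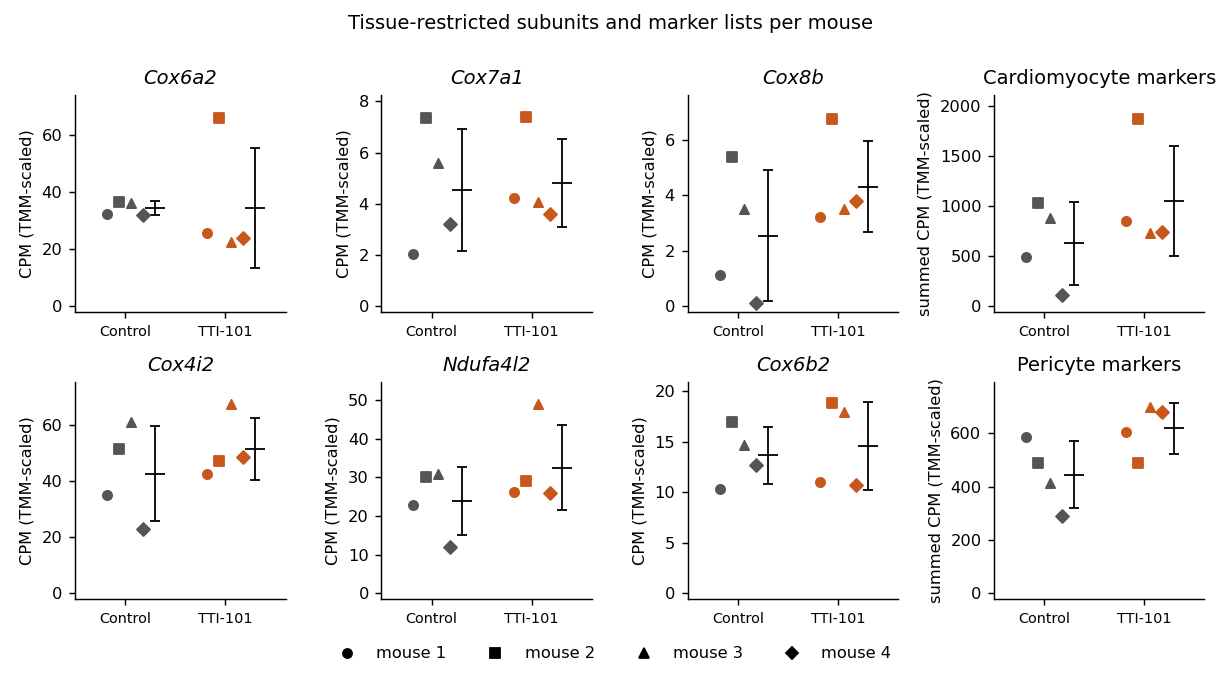
TMM-scaled CPM per lung (vertical axes from 0) of 6 tissue-restricted subunits beside the summed CPM of the cardiomyocyte and pericyte marker lists; symbols give the mouse, and the bar beside each group is the mean with its SD (n = 4). Cox6a2 lies at 66.2 CPM in treated mouse 2, where the cardiomyocyte list lies at 1870 CPM. In the other treated lungs Cox6a2 lies at 22.6 to 25.7 CPM and the list at 733 to 847 CPM. In Control lungs Cox6a2 lies at 32.2 to 36.6 CPM and the list at 108 to 1035 CPM. Cox4i2 and Ndufa4l2 are lowest in Control mouse 4, at 22.8 and 11.9 CPM.

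Nuclear respiratory chain promoters are known as targets of NRF1, GABPA and YY1, and the RefSeq windows on GRCm38.p6 (250 bases before to 50 after the start site) were searched for their core letters on either strand. A window was found for 76 of the nuclear genes. GCGCATGC, the NRF1 core, was in 12 of them (15.8%) against 3.9% of 17491 coding genes, and AAGATGGC, the YY1 core, in 11 (14.5%) against 3.6%. CCGGAAGT, the GABPA core, was in 5 (6.6%) against 5.7%. A match is only a description of the letters. The 12 genes with the NRF1 core had a median log2 fold change of -0.14 with 9 lower, the 11 with the YY1 core -0.20 with 8 lower, and the 5 with the GABPA core -0.10 with 5 lower, beside -0.17 for all 91 nuclear genes tested. With Control mouse 4 left out, these were -0.03 with 6 lower, -0.16 with 8 lower and -0.06 with 3 lower, beside -0.08 for all.
The stretches that follow show where the core sits in genes described above, with the core in capitals and the strand of the gene: Cox6a1 (chr5:115349077-115349156, minus), Sdhb (chr4:140961181-140961260, plus) and Atp5l (chr9:44920913-44920992, minus) for NRF1, Uqcrh (chr4:116075038-116075117, minus) and Cox8a (chr19:7217579-7217658, minus) for GABPA, and Atp5f1 (chr3:105959223-105959302, minus) and Ndufaf8 (chr11:120098904-120098983, plus) for YY1.
Cox6a1: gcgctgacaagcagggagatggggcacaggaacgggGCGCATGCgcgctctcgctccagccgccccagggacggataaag
Sdhb: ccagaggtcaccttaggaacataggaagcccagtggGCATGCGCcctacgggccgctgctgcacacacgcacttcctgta
Atp5l: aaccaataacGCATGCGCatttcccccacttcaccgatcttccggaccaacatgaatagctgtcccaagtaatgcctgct
Uqcrh: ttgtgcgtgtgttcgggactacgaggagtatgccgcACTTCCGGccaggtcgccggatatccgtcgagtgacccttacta
Cox8a: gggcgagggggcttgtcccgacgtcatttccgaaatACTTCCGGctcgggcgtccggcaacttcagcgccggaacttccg
Atp5f1: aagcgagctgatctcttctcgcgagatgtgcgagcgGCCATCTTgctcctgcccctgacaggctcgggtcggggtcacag
Ndufaf8: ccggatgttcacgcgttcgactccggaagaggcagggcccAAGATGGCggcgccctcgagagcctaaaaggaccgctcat

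Other mitochondrial genes were taken from 6 lists chosen by function. The factors that copy, transcribe and stabilize the mitochondrial genome, among them Tfam, Polrmt and Lrpprc, had 22 of 22 genes tested, of which 11 were lower and 11 higher, and 0 had an unadjusted p under 0.05 in edgeR. Their summed level was 413 to 437 CPM in Control and 399 to 456 CPM in TTI-101 lungs, with 433 CPM in Control mouse 4, the lung with the most mitochondrially encoded transcripts. The 12 regulators of mitochondrial biogenesis, such as Ppargc1a and Nrf1, summed to 385 to 390 CPM in Control and 376 to 421 CPM in TTI-101 lungs, again with 0 under an unadjusted p of 0.05 and a median log2 fold change of -0.01. Both lists lay in Control mouse 4 within the range of the other lungs.

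The citric acid cycle had 0 of 13 genes and the assembly factors outside the rule 0 of 36 tested genes under an unadjusted p of 0.05 in edgeR, with medians of 0.04 and 0.01 on the log2 scale. Of 10 import and outer membrane genes, 9 were lower with a median of -0.17 (-0.11 with Control mouse 4 left out), and their sum was 878, 976, 1086 and 1113 CPM in Control and 887, 919, 888 and 807 CPM in TTI-101 lungs. Hspd1, the matrix chaperonin, had 127, 147, 187 and 168 CPM in Control and 134, 101, 104 and 122 CPM in TTI-101 lungs, with a log2 fold change of -0.45 ± 0.16 (SE) and an unadjusted p of 0.0177 in edgeR. Tomm22, a receptor of protein import, had -0.40 ± 0.15 (SE) and an unadjusted p of 0.0238. Among the mobile carriers and other quinone enzymes, 4 of 10 were lower, 2 of them under an unadjusted p of 0.05: Etfb, which feeds electrons of fatty acid oxidation to ubiquinone, at -0.72 ± 0.29 (SE), and Coq7, an enzyme of ubiquinone synthesis, at -0.53 ± 0.23 (SE). With Control mouse 4 left out, 0 of the 10 were under 0.05.

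Cell type markers differed between the lungs too, and their part in the respiratory chain values was not tested. The 7 alveolar type 2 markers were all lower, with a median log2 fold change of -0.40, and sums of 48324, 41281, 48960 and 73510 CPM in Control and 35426, 58502, 32283 and 32318 CPM in TTI-101 lungs. The highest Control value was that of mouse 4 and the highest treated value that of mouse 2, which was also the treated lung with the highest nuclear respiratory chain sum. Control lungs did not share this order. Their nuclear sum was highest in mouse 3 (7984 CPM) and lowest in mouse 1 (6098 CPM), whose alveolar type 2 sums were 48960 and 48324 CPM. With Control mouse 4 left out, 6 of the 7 alveolar type 2 markers were lower and the median was -0.19. Of the 5 club cell markers 4 were lower (median -0.56, and -0.45 with that lung left out), with sums of 15579, 26777, 35310 and 37953 CPM in Control and 15859, 25338, 18023 and 13423 CPM in TTI-101 lungs. The 8 ciliated markers tested were lower (median -0.79), 4 of them under an unadjusted p of 0.05 in edgeR. All 8 stayed lower with Control mouse 4 left out, but the median was -0.40 and 0 were under 0.05. The 5 B cell markers were higher (median 1.28, and 1.06 with that lung left out), each under an unadjusted p of 0.05, which 518 of all genes tested (3.02%) reached on the higher side, and summed to 82.2 to 220 CPM in Control and 202 to 426 CPM in TTI-101 lungs.
The endothelial list summed to 912 to 2532 CPM in Control and 2053 to 3678 CPM in TTI-101 lungs, and the leukocyte list to 313 to 714 and 478 to 854 CPM, with medians of 0.57 and 0.45. Medians were 0.40 for 6 alveolar type 1 markers, 0.32 for 6 alveolar macrophage markers, 0.68 for 5 T cell markers, 0.83 for 4 tested neutrophil markers, 1.56 for 6 tested adipocyte markers and 2.50 for 5 tested red cell markers. In these lists 1 T cell, 4 adipocyte and 4 red cell markers had an unadjusted p under 0.05 on the higher side, and Ucp1, which marks brown fat, had 0 to 15 counts. With Control mouse 4 left out, the medians were 0.35 for endothelial, 0.26 for leukocyte, 0.17 for alveolar type 1, 0.16 for alveolar macrophage, 0.46 for T cell, 0.51 for neutrophil, 1.27 for adipocyte and 3.12 for red cell markers, with 0 T cell, 4 adipocyte and 5 red cell markers under 0.05.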

How the data were processed

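TruSeq Stranded mRNA libraries were sequenced from the lungs of 8 CC-LR mice (4 Control, 4 TTI-101), 1 per mouse, so replicates are separate mice. The deposited values are raw counts per Ensembl gene, made by the authors; the submitters' processing notes name STAR, DESeq2 and mm10 without versions. The counting tool, its strand setting and its treatment of reads with several alignments are not given in the sources used here. Columns were matched to mice by the library names in the labels, and gene coordinates are those of the table (GRCm38).

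Counts of all genes were fitted in R 4.3.3 with edgeR 4.0.16 (filterByExpr with a minimum count of 10, TMM, robust glmQLFit and glmQLFTest, no covariate, p adjusted by Benjamini and Hochberg's method over 17138 genes). CPM per kb uses the gene length in the table. The exact permutation test over 70 assignments (two-sided, smallest p 0.0286) used log2 CPM with a prior count of 2. Nuclear copies were found with BLAST 2.17.0 and 100-base windows against GENCODE M21 transcripts. The closest match of a gene is described whatever its identity, and copies of at least 99% identity over at least 50% of the gene were those added in the fit with copies. Promoter windows came from RefSeq. The fits were tested on simulated data, with changes larger than any fitted here for a respiratory chain gene. Genes varied independently there and no lung stood apart, so that test cannot show how the fits behave on these lungs.

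The members, the 6 functional and 15 marker lists and the tests were chosen with earlier results of these data known. Genes named are all mitochondrially encoded genes, the 3 with the lowest unadjusted p and the 1 with the highest CPM per kb in each complex and among the assembly factors, tissue-restricted isoforms beside their widely used forms, Ndufa13, and the ATP synthase inhibitor. Others (Ndufb2, core subunits of complex I, Sdha, Uqcrc1, Uqcrc2, Atp5b, Atp5d, Hspd1, Tomm22, Etfb and Coq7) were named after their values were seen.

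Alternatives were DESeq2 1.42.0, limma-voom (limma 3.58.1), DESeq2 size factors, library totals, scaling without mitochondrially encoded genes, a fit without filter, a stricter filter (10 counts in each of the libraries), a fit of coding genes alone, the replicate number as a block, and each library left out. Adding the counts of nuclear copies and leaving out the deepest libraries, with and without Control mouse 4, were chosen after seeing the data. Mice with the same number did not deviate together in every pair (correlations of 0.393, 0.0822, 0.158 and 0.0707 for numbers 1 to 4). The treated mouse that correlated best bore the same number for Control mice 1 and 2 and another number for Control mice 3 and 4. The labels give no pairing, so the numbers were not taken as pairs. Libraries of a group differed far beyond sampling noise.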

Additional observations from a re-analysis of the deposited data

Results flagged for a closer look

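In 110 sets of 4 lungs (respiratory chain sums, their ratio and the genes named by rule), the gap between the most extreme lung and its nearest neighbour was divided by the range of the set, and 16 passed Dixon's critical value, where chance gives about 1 in 20, or 5.5. The sets share mice and are not independent.

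In Control mouse 4, the mitochondrially encoded sum gave 0.895, its ratio to the nuclear sum 0.839, mt-Co1 0.898, mt-Cytb 0.857, mt-Nd1 0.846 and mt-Nd6 0.938, each with that lung on the high side. Cox7b gave 0.832 in the same lung, at 75.2 CPM against 50.8 to 54.9 CPM in the other Control lungs. The abundant mitochondrially encoded genes and one nuclear subunit of complex IV were thus high in 1 lung.

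In TTI-101 mouse 2, Cox6a2 gave 0.929, Cox6c 0.915, Cox7b 0.907, Uqcrh 0.893, Atp5mpl 0.875, Cox8b 0.839 and Cox7a1 0.833, again on the high side. Cox6a2, Cox7a1 and Cox8b are muscle forms, and Cox6c, Cox7b, Uqcrh and Atp5mpl are used in most tissues. Uqcrh lay at 129 CPM there against 70.4 to 76.7 CPM in the other treated lungs.

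Ndufa4l2 gave 0.858 in TTI-101 mouse 3, at 48.9 CPM against 25.9 to 29.2 CPM. mt-Nd3 gave 0.891 in TTI-101 mouse 1, at 12.8 CPM against 2.39 to 3.53 CPM, the lung in which its nuclear copy held 11.7% of the counts.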

How the results depend on the processing

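The medians and summed levels of the mitochondrially encoded and of the nuclear genes were below 0 under every alternative run (-0.76 to -0.12 and -0.24 to -0.05 for the medians). The counts of genes moved more, and the cause was not tested. Genes with an adjusted p under 0.05 were 0 in edgeR, 4 in DESeq2, and 0 to 1 with a library left out. Genes with an unadjusted p under 0.05 were 1849 without a filter and 422 to 2498 with a library left out. Mitochondrially encoded genes at that level were 1 in edgeR, 3 in DESeq2, 4 without a filter, 1 to 6 with a library left out, 2 with nuclear copies added, 5 without the deepest libraries and 2 without these and Control mouse 4. Nuclear genes were 6, 1 to 22 with a library left out and 12 without the deepest libraries. The share of all genes tested at that level moved too. It was 6.61% in edgeR, 5.32% in DESeq2, 5.81% without a filter and 2.42% to 14.2% with a library left out. It was 6.62% with nuclear copies added, 8.46% without the deepest libraries and 5.0% without these and Control mouse 4. With the replicate block, 6 respiratory chain genes had an unadjusted p under 0.05 (beside 7.57% of all genes), 5 of them shared with the fit without it. The lowest adjusted p of any respiratory chain gene in any fit was 0.280. Of 46 named genes fitted, 36 kept their sign in every alternative. The other 10 changed sign. Cox6a1 (-0.003 in edgeR) was 0.007 in DESeq2, 0.003 with its size factors, 0.034 with library totals, 0.004 scaled without mitochondrially encoded genes, 0.008 without a filter, 0.002 with 10 counts in every library and 0.004 over protein-coding genes. Cox6a2 was -0.165 in limma-voom and -0.157 with the replicate block. With a library left out, log2 fold changes spanned -0.013 to 0.101 for Atp5a1, -0.132 to 0.123 for Cox6a1, -0.506 to 0.163 for Cox6a2, -0.037 to 0.221 for Cox6b2, -0.178 to 0.425 for Cox7a1, -0.207 to 0.061 for Cox8a, -0.348 to 0.175 for mt-Atp6, -0.939 to 0.303 for mt-Nd3 and -0.722 to 0.029 for mt-Nd5. Without the deepest libraries Cox7a1 was -0.103, and without these and Control mouse 4 Cox7a1 was -0.356, Cox4i2 -0.031, mt-Atp6 0.049 and mt-Nd5 0.025.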
